A study of Homo sapiens with 6 samples.

Results

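The INK4 inhibitors, the p27 inhibitor CDKN1B, the D cyclins and the kinases CDK4 and CDK6 form the G1 gate of the cell cycle, and 10 genes of it were followed here among the 20030 genes of the count table: CDKN2A, CDKN2B, CDKN2C, CDKN2D, CDKN1B, CCND1, CCND2, CCND3, CDK4 and CDK6. They were taken by gene symbol, and the group was chosen from values of this same comparison, so the differences of these 10 genes are given as a description, with no test. The cells were HepG2, an established human hepatoma line, with a lentiviral control shRNA (sh-ctrl, 3 libraries) or a lentiviral shRNA against KIF11 (sh-KIF11, 3 libraries), KIF11 being a kinesin motor of the mitotic spindle. Both groups are thus transduced HepG2 cells and differ in the hairpin, which the labels do not name beyond its target. Nothing in the labels says whether the libraries of a group came from separate cultures, and p-values then measure only the spread between these libraries, which may be technical.

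D cyclins bind CDK4 or CDK6, and the active pair phosphorylates the retinoblastoma protein and its relatives, which releases the cell from G1 into S phase. The INK4 proteins bind CDK4 and CDK6 and keep D cyclins off them, whereas the p27 protein acts mainly on cyclin E and cyclin A with CDK2 and can also ride on cyclin D complexes. CDKN2A encodes p16 and, from another first exon read in another frame, ARF (p14), which binds MDM2, and the INK4 locus is a classical marker of cellular senescence and a frequent target of loss or methylation in liver cancer.

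The p16 and p14 mRNAs share their second exon, and the count table holds 1 value for CDKN2A, so its counts do not separate them. The primers that the study lists for quantitative PCR show where the transcripts part. They are printed 5′ to 3′ because the second of each pair reaches the exon common to both products, whereas the first lies in exon 1 of one product alone.
p16 forward: agcatggagccttcggctga
p16 reverse: ccatcatcatgacctggatcg
p14 forward: ctgtggccctcgtgctgat
p14 reverse: cgtgtccaggaagccctc
In GENCODE release 29 (GRCh38, minus strand) the p16 forward primer lies at chr9:21974787-21974806 and the p14 forward primer at chr9:21994189-21994207. The p14 reverse primer lies at chr9:21971080-21971097 in the shared exon, and the p16 reverse primer spans the junction of its exons 1 and 2. Both p16 primers were found together in 3 transcripts and both p14 primers in 2, all of CDKN2A. Each reverse primer alone also matched transcripts of CDKN2B, the neighbouring gene, whose second exon resembles that of CDKN2A.

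The same list gives pairs for both kinases, and they are shown because each pair matched the gene named for the other.
listed as CDK4, forward: tgcacagtgtcacgaacaga
listed as CDK4, reverse: acctcggagaagctgaaaca
listed as CDK6, forward: catcgttcaccgagatctga
listed as CDK6, reverse: ccaacactccacatgtccac
Over all GENCODE transcripts, the pair listed as CDK4 was found without mismatch in 2 transcripts, both of CDK6, with the forward primer at chr7:92774799-92774818 and the reverse at chr7:92725767-92725786. The pair listed as CDK6 was found in 6 transcripts, all of CDK4, with the forward primer at chr12:57751021-57751040 and the reverse at chr12:57750686-57750705. The sequencing counts are assigned by gene and do not use these primers. The p27 pair was found in 3 transcripts, all of CDKN1B.

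Of the 12369 genes that passed the filter on low counts, 69.1% passed a threshold of 0.05 on the adjusted p (edgeR, quasi-likelihood, two-sided, adjusted by Benjamini-Hochberg), 34.4% higher and 34.7% lower in sh-KIF11, and in 71.2% no library of one group lay within the range of the other. All 10 genes of the gate passed the filter, 4 higher and 6 lower, and on the TMM-scaled CPM defined below 9 did not overlap. Nothing is read from these counts because the group was chosen with this comparison known. Depth was 18167773 to 19583282 counts per library, so that 3 counts, the limit that a count of 0 allows, correspond to 0.145 to 0.178 CPM (TMM-scaled reads relative to library size, counting error only). A log2 difference is sh-KIF11 minus sh-ctrl, set against the bulk of the genes, whose median was 0.00, and scaling by library totals alone moves that median to 0.24. KIF11 itself had 1976, 2088 and 2039 counts under sh-ctrl against 1448, 1478 and 1240 under sh-KIF11, a log2 difference of -0.75 (SE 0.0573). Of the hepatocyte markers, ALB, AFP, APOA1, APOB and SERPINA1 were abundant and TTR was low, with 395 to 572 counts. Their summed level was 27351 to 28467 CPM in sh-ctrl and 13148 to 14226 CPM in sh-KIF11. The markers did not fall alike. TTR overlapped, with 23.4, 31.7 and 23.4 CPM under sh-ctrl against 23.6, 21.2 and 27.1 under sh-KIF11, and APOB was 8343.1 to 9576.3 against 6707.3 to 7490.5 CPM. Of the fibroblast, endothelial and leukocyte markers, DCN, COL1A1, COL1A2, CDH5 and PTPRC had at most 7 counts in any library. The other 4 had more. CD68 carried nearly all of the leukocyte sum, which was 78.0 to 89.1 CPM in sh-ctrl and 41.6 to 46.2 CPM in sh-KIF11, and CD14 had 15 to 25 against 4 to 9 counts. VWF had 34, 21 and 28 against 75, 63 and 54 counts and PECAM1 23 to 44 counts over all libraries, and the endothelial sum was 3.10 to 3.56 CPM in sh-ctrl and 4.69 to 4.98 CPM in sh-KIF11. The part of these marker shifts in the differences below was not tested, and in bulk RNA fewer cells of a state and less RNA per cell cannot be told apart.

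CDKN2A and CDKN2B, neighbours on chromosome 9, were low in sh-ctrl and several times higher in sh-KIF11, while CDKN2C and CDKN2D were lower. CDKN2A (GRCh38 chr9:21967753-21995301, minus strand) had 26, 20 and 14 counts under sh-ctrl against 189, 178 and 155 under sh-KIF11, which is 1.46, 1.11 and 0.830 CPM against 9.42, 8.60 and 7.86 CPM. All sh-KIF11 libraries lay above all sh-ctrl libraries. The means were 1.13 ± 0.315 and 8.63 ± 0.781 CPM (SD, n = 3 each), a ratio of 7.62 and a log2 difference of 2.92 (SE 0.200). The authors' FPKM for CDKN2A were much lower than its counts imply: counts divided by FPKM and depth gave an effective length between 10.2 and 16.4 kb, against 3.157 kb of merged exons in GENCODE. For CDK6, the longest transcript of the group, the same division gave 9.13 to 9.83 kb against 11.729 kb. The counts of CDKN2A are therefore used here. Its FPKM means were 0.0797 under sh-ctrl and 0.706 under sh-KIF11, and adding 1 to such low values compresses their difference. The log2 difference of CDKN2A was 0.66 on log2(FPKM + 1) and 2.15 on log2(FPKM + 0.1).

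CDKN2B, which encodes p15, a relative of p16 induced by TGF-β in epithelial cells, had 39, 20 and 32 counts under sh-ctrl against 217, 283 and 263 under sh-KIF11. In CPM these were 2.19, 1.11 and 1.90 against 10.8, 13.7 and 13.3, with no overlap. The ratio of means was 7.29 and the log2 difference 2.86 (SE 0.173), and on log2(FPKM + 1), which compresses low values, it was 1.55. CDKN2B lies at chr9:22002903-22009363 on the minus strand. CDKN2A and CDKN2B shared little sequence in long windows, since 6 of the 4629 windows of 75 bases in CDKN2A transcripts, or 0.13%, also occur in CDKN2B. The count of CDKN2A over that of CDKN2B was 0.667, 1.0 and 0.438 under sh-ctrl against 0.871, 0.629 and 0.589 under sh-KIF11, so this ratio overlapped between the groups while both genes differed. The antisense gene CDKN2B-AS1, which overlaps 341 exon bases of CDKN2A on the other strand, had no entry under this symbol in the count table. The sources used here do not give the strand setting of the counting, although the library kit was stranded.

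CDKN2C, encoding p18, the INK4 gene with the most reads in sh-ctrl, had 566, 581 and 484 counts under sh-ctrl against 310, 332 and 307 under sh-KIF11. In CPM it went from 30.9 ± 1.91 to 15.7 ± 0.312 (SD, n = 3 each), a log2 difference of -0.98 (SE 0.0826). CDKN2D, encoding p19, had 187, 156 and 152 counts under sh-ctrl against 115, 107 and 85 under sh-KIF11. Its CPM went from 9.38 ± 0.975 to 5.07 ± 0.716, a log2 difference of -0.89 (SE 0.140), or -0.56 on log2(FPKM + 1). In both genes every sh-KIF11 library lay below every sh-ctrl library. CDKN2C lies at chr1:50960745-50974633 on the plus strand and CDKN2D at chr19:10566462-10569059 on the minus strand.

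**Figure D1:**
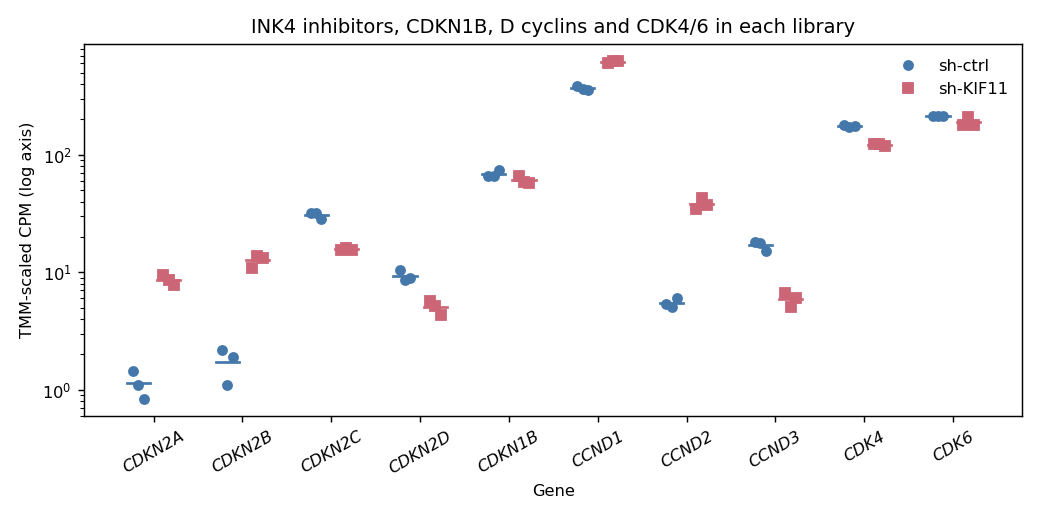
TMM-scaled CPM on a log axis (y) of the 10 genes (x) in each library, with circles for sh-ctrl, squares for sh-KIF11 and a bar at the mean of 3 libraries. CDKN2A, CDKN2B and CCND2 stand several times higher in sh-KIF11, CCND3 is lower at a mean of 5.89 against 17.2 CPM, and the CDKN1B libraries of the groups overlap.

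The 5′ regions of the pair that was higher are printed because these neighbours moved together. They come from RefSeq (GRCh38.p14, minus strand, read 5′ to 3′), cut to the bases before the start of transcription that no annotated exon of that strand covers. Capitals mark GGGCGG or its complement CCGCCC, the GC box to which the factor Sp1 binds. The first is upstream of the ARF start of CDKN2A at chr9:21995325-21995574, and the second is upstream of CDKN2B at chr9:22009364-22009555.
CDKN2A, ARF start: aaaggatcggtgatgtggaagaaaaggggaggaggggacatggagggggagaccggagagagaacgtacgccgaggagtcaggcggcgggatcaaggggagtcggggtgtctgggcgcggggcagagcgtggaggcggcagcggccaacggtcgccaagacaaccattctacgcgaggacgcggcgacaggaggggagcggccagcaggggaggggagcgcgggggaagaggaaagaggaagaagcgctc
CDKN2B: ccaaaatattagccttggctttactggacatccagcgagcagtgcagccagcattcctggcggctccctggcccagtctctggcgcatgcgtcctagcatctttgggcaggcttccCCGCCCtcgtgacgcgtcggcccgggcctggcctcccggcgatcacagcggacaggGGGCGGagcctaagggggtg
The shown CDKN2A stretch holds 24 CG dinucleotides in 250 bases and no GC box, and the CDKN2B stretch holds 14 in 192 bases and 2 GC boxes. In the full windows of 300 bases (250 before the start and 50 from it on), the ARF start had 28 CG, the p16 start 26 and CDKN2B 25, against a median of 14 over 35114 such windows. The p16 window had 2 GC boxes, a word found on either strand in 45.0% of all windows. Windows were matched by symbol for 8 of the 10 genes, all but CCND1 and CCND2, and there were 14 of them. None of the 14 held the E2F words TTTGGCGC, TTTCCCGC, TTTCGCGC or TTTGCCGC, found in 3.31% of all windows, or the TCF words CTTTGAA or CTTTGAT, found in 6.86%, on either strand. The MYC word CACGTG, present in 7.26% of all windows, occurred 3 times in the CDK4 window (chr12:57752261-57752560), once in each of 2 of the 3 CDKN2C windows and once in 1 of the 2 CDK6 windows. None of the GC box, E2F, TCF and MYC words lies within another, and a match is not a binding site. The CG counts include the CG inside the GC box and MYC words.

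CDKN1B, encoding p27, was the gene of the gate whose groups overlapped in TMM-scaled CPM. It had 1177, 1182 and 1255 counts under sh-ctrl against 1321, 1204 and 1131 under sh-KIF11, or 66.0, 65.5 and 74.4 CPM against 65.8, 58.2 and 57.3 CPM. The log2 difference was -0.18 (SE 0.0641) with TMM and 0.049 with library totals alone, so its sign depended on the scaling. CDKN1B lies at chr12:12715058-12722371 on the plus strand.

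The D cyclins went different ways. CCND1, the main D cyclin of hepatocytes and a target of β-catenin and growth factor signalling, had 6836, 6565 and 6032 counts under sh-ctrl against 12054, 13046 and 12327 under sh-KIF11, or 368 ± 13.5 against 619 ± 15.7 CPM (SD, n = 3 each). The ratio was 1.68 and the log2 difference 0.75 (SE 0.0480). CCND1 (chr11:69641087-69654474, plus strand) shares 10.3% of its exon bases with the antisense gene LTO1, listed in the table as ORAOV1, which had 201 to 315 counts in any library.

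CCND2, a D cyclin known best from lymphoid, germ and neural cells, was low in sh-ctrl with 95, 91 and 101 counts and had 689, 881 and 737 in sh-KIF11. Its CPM of 5.33, 5.04 and 5.98 compared with 34.3, 42.6 and 37.4, a ratio of 6.99 and a log2 difference of 2.81 (SE 0.103). CCND2 lies at chr12:4273772-4305350 on the plus strand, and 12.9% of the 75-base windows of its transcripts also occur in the overlapping gene model AC008012.1, and how reads there were assigned is not given in the sources used here. CCND3, the third D cyclin, went the other way, with 326, 323 and 258 counts under sh-ctrl against 133, 105 and 118 under sh-KIF11. Its CPM of 18.3, 17.9 and 15.3 compared with 6.63, 5.07 and 5.98, a log2 difference of -1.54 (SE 0.117), or -0.96 on log2(FPKM + 1), and it lies at chr6:41934933-42050357 on the minus strand. Neither CCND2 nor CCND3 overlapped between the groups.

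CDK4 had 3188, 3138 and 2993 counts under sh-ctrl against 2473, 2577 and 2322 under sh-KIF11, or 177 ± 2.51 against 122 ± 3.60 CPM (SD, n = 3 each). Every sh-KIF11 library was below every sh-ctrl library, and the log2 difference was -0.54 (SE 0.0499), or -0.31 with library totals alone. CDK4 (chr12:57747727-57756013, minus strand) shares 43.2% of its exon bases with TSPAN31 on the other strand. TSPAN31 had 130, 148 and 133 counts under sh-ctrl against 194, 196 and 208 under sh-KIF11, few beside those of CDK4. CDK6 (chr7:92604921-92836594, minus strand) had 3814, 3880 and 3635 counts under sh-ctrl against 3620, 4304 and 3560 under sh-KIF11. Its CPM of 214, 215 and 215 compared with 180, 208 and 181, a log2 difference of -0.18 (SE 0.0525) that became 0.052 with library totals alone. In FPKM the CDK6 groups overlapped, with 21.6, 21.7 and 21.1 under sh-ctrl against 19.8, 23.0 and 20.2 under sh-KIF11.

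**Figure D2:**
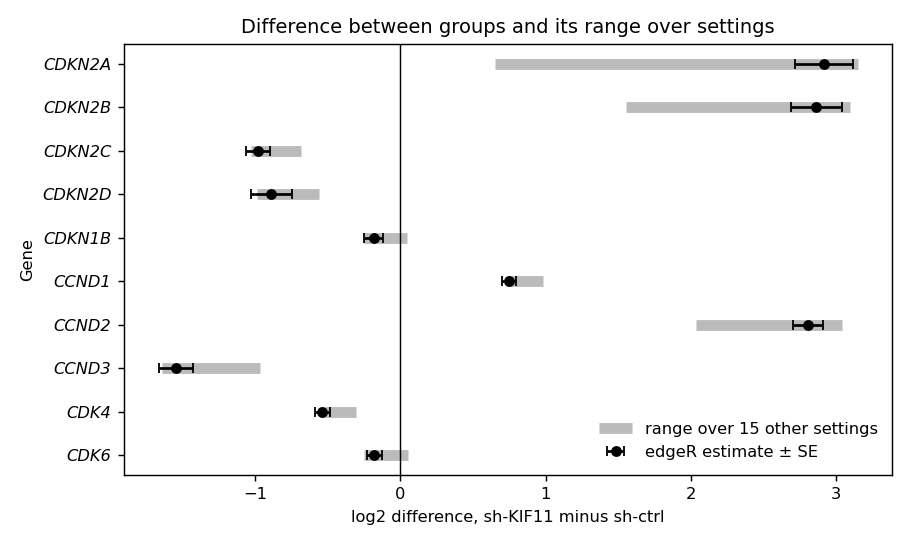
Log2 difference, sh-KIF11 minus sh-ctrl (x), of each gene (y), with points for the edgeR estimate, bars for its SE and grey bars for the lowest to the highest value over 15 other settings. CDKN1B and CDK6 are the genes whose grey bars cross 0, reaching 0.049 and 0.052 with library totals alone. The low end of CDKN2A, 0.66, is on log2(FPKM + 1), which compresses its low values, and on log2(FPKM + 0.1) it is at 2.15.

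Set against each other per length, these genes differed over a wide range. CPM were divided by the kilobases of merged exons in the GENCODE basic annotation. In sh-ctrl the order was CDK4 (85.1 ± 1.21 CPM per kb, SD, n = 3), CCND1 (83.6 ± 3.06), CDKN1B (25.8 ± 1.87), CDK6 (18.3 ± 0.0678), CDKN2C (9.30 ± 0.576), CDKN2D (6.24 ± 0.649), CCND3 (4.35 ± 0.413), CCND2 (0.841 ± 0.0746), CDKN2B (0.429 ± 0.138) and CDKN2A (0.359 ± 0.0997). CDK4 and CCND1 overlapped in that order, as did CDKN2B and CDKN2A, and no other neighbours did. In sh-KIF11, CCND1 came first with 140 ± 3.57 CPM per kb, CCND2 stood at the fifth place instead of the eighth with 5.88 ± 0.642, and CCND3 was last with 1.5 ± 0.198. CDKN2D, CDKN2B and CDKN2A, at 3.37 ± 0.476, 3.13 ± 0.387 and 2.73 ± 0.247 CPM per kb, overlapped as neighbours. In the authors' FPKM, CCND1 with 82.6 and CDK4 with 72.3 changed places in sh-ctrl, and CDKN2A with 0.706 was below CCND3 with 1.73 in sh-KIF11, with the limit on the FPKM of CDKN2A given above.

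Ratios within a library do not depend on how the libraries are scaled. In sh-ctrl, CDKN2C and CDKN2D made up most of the INK4 sum per length, with 57.03% ± 2.99 and 38.2% ± 2.12 (SD, n = 3 each), and CDKN2A and CDKN2B made up 2.18% ± 0.461 and 2.62% ± 0.789. In sh-KIF11 these shares were 33.9% ± 1.12, 24.1% ± 2.76, 19.56% ± 1.35 and 22.4% ± 3.05. CDKN2A and CDKN2B thus held a larger part of the INK4 mRNA, while the sum on the TMM scale was 17.5, 16.1 and 15.4 CPM per kb under sh-ctrl against 14.1, 14.4 and 13.4 under sh-KIF11. With FPKM, the CDKN2A share was 0.501% ± 0.169 and 5.45% ± 1.17 and the CDKN2B share 2.198% ± 0.791 and 23.0% ± 3.02.

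CCND1 stayed the bulk of the D cyclin sum, at 94.2% ± 0.237 in sh-ctrl and 95.0% ± 0.189 in sh-KIF11. Behind it, CCND2 and CCND3 traded places. CCND2 was 0.889%, 0.885% and 1.07% of the sum under sh-ctrl against 3.70%, 4.35% and 3.87% under sh-KIF11. CCND3 was 5.01%, 5.17% and 4.51% under sh-ctrl against 1.17%, 0.853% and 1.02% under sh-KIF11. FPKM gave nearly the same shares, with CCND2 at 0.957% ± 0.107 and 4.00% ± 0.303.

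The D cyclin sum over the sum of CDK4 and CDK6 was 0.886, 0.861 and 0.828 under sh-ctrl against 1.92, 1.94 and 2.07 under sh-KIF11, with no overlap, and in FPKM the means were 0.936 and 2.08. The INK4 sum over the same kinase sum was 0.168, 0.158 and 0.148 under sh-ctrl against 0.189, 0.185 and 0.185 under sh-KIF11. In FPKM that second ratio was 0.162 to 0.178 under sh-ctrl against 0.162 to 0.166 under sh-KIF11 and the groups overlapped. The scales use different lengths for the genes, most so for CDKN2A, and which length moved the ratio was not tested. CDK4 over CDK6 was 4.72, 4.57 and 4.65 under sh-ctrl against 3.86, 3.38 and 3.69 under sh-KIF11. These are ratios of mRNA and say nothing of protein or of complexes.

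**Figure D3:**
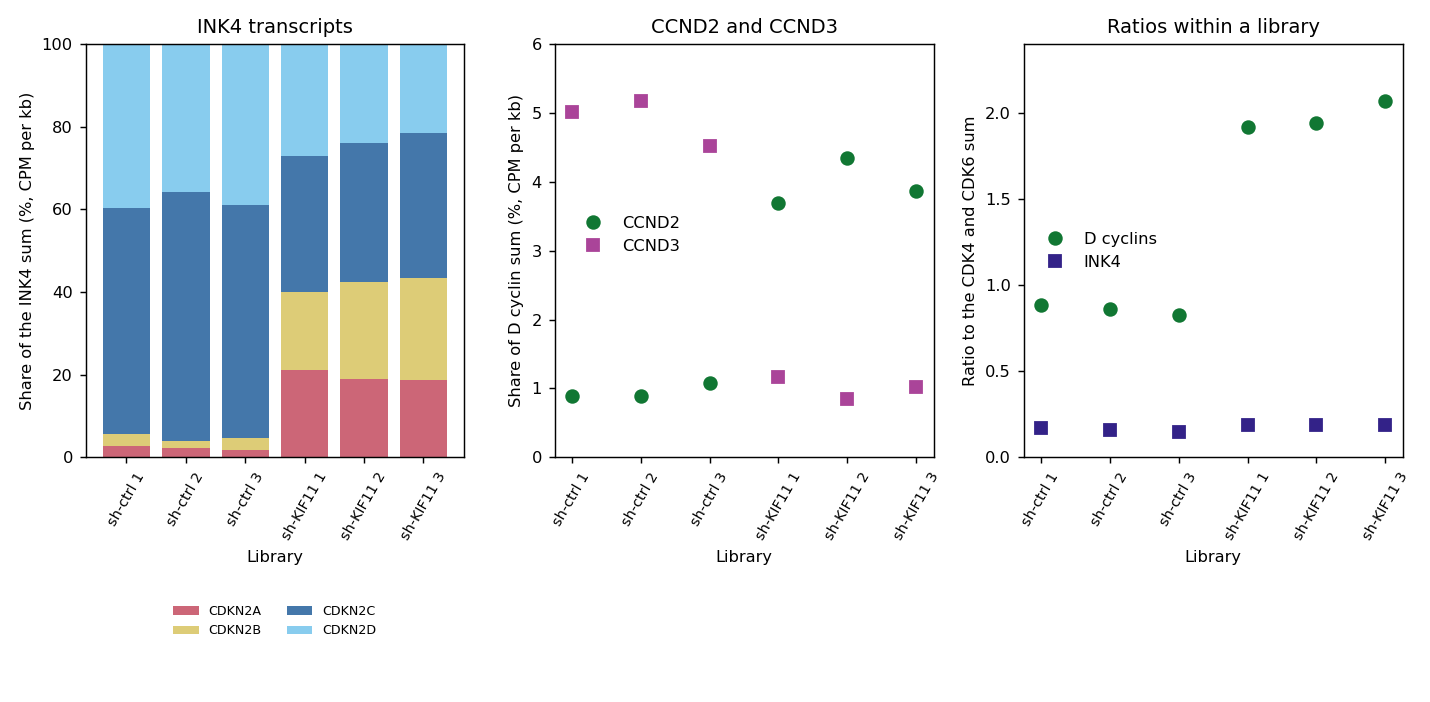
Shares and ratios per library (x), from CPM per kb of exon. Left, CDKN2A, CDKN2B, CDKN2C and CDKN2D as a percentage of the INK4 sum. Middle, CCND2 and CCND3 as a percentage of the D cyclin sum, where CCND2 is at 0.885 to 1.07% under sh-ctrl against 3.70 to 4.35% under sh-KIF11. Right, the D cyclin sum and the INK4 sum over the CDK4 and CDK6 sum.

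The other genes of the pathway, 56 in 9 lists, were tested in the same edgeR fit, with p-values adjusted over all 12369 genes. Of these, 55 were in the count table, 53 passed the filter and 37 passed an adjusted p of 0.05, 19 higher and 18 lower. The 37 are 69.8% of the 53, near the 69.1% of all tested genes. The median log2 difference of the 53 was 0.05. With library totals alone, 31 were higher and 9 lower, and on log2(FPKM + 1) with limma 27 were higher and 11 lower. Over all tested genes the share of calls that were higher went from 49.8% to 73.6% and 68.5% under those settings. The totals also moved the smaller lower values of named genes towards 0, for example CDKN3 from -0.44 to -0.21 and CDC25A from -0.60 to -0.37, and the higher ones away from it, for example RB1 from 0.38 to 0.61.

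Among the other kinase inhibitors, CDKN1A, encoding p21, rose by 0.58 (SE 0.0556, adjusted p = 3.57e-12 from edgeR), from 2777 to 3379 counts in sh-ctrl to 4808 to 5369 in sh-KIF11. CDKN3, a phosphatase that acts on CDKs, was lower (-0.44, SE 0.0748, adjusted p = 1.78e-06 from edgeR). CDKN1C, encoding p57, had 0 counts in 5 libraries and 2 in the other and was not tested. In the ARF arm, MDM2, the ubiquitin ligase that ARF binds, rose by 0.68 (SE 0.0481, adjusted p = 4.47e-16 from edgeR). MDM4, a relative of MDM2, had a log2 difference of 0.08 (adjusted p = 0.467) and passed in 1 of 15 other settings, library totals alone (0.31).

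The pocket proteins, which CDK4 and CDK6 phosphorylate, had RB1 higher by 0.38 (adjusted p = 2.08e-06) and RBL2 higher by 0.37 (adjusted p = 9.8e-08), with RBL1 at -0.07 (adjusted p = 0.386), all from edgeR. RBL1 changed sign in 4 of 15 other settings and passed in 1, library totals alone (0.17, adjusted p = 0.023). Of 5 tested genes for cyclin E, cyclin A and CDK2, 4 passed the threshold, 1 higher and 3 lower. The 3 lower were CDC25A, the phosphatase that activates CDK2, at -0.60 (adjusted p = 7.92e-11), CCNA2 at -0.52 (adjusted p = 1.74e-11) and CDK2 at -0.42 (adjusted p = 1.92e-07). CCNE1 was the higher one, at 0.33 (adjusted p = 5.88e-05), and was outside the rule for naming.

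Of the CDK-activating kinase and the chaperones that fold CDK4, 4 of 6 genes passed, 2 in each direction. HSP90AB1, a constitutive HSP90, was at -0.31 (adjusted p = 2.23e-07), but at -0.08 with library totals alone (adjusted p = 0.126). CDK7, the activating kinase, was at -0.23 (adjusted p = 0.00603) and lost its call with upper-quartile factors, library totals alone and both FPKM settings, with adjusted p between 0.0652 and 0.974. MNAT1, its assembly factor, was at 0.20 (adjusted p = 0.0153) and lost its call without the third sh-KIF11 library (adjusted p = 0.0896).

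Of 15 genes in the turnover of D cyclins and p27, 4 were higher and 6 lower. SKP2, the F-box protein that targets p27 for degradation, was lower by a log2 difference of -0.74 (SE 0.0598, adjusted p = 1.97e-14), and its cofactor CKS1B by -0.90 (SE 0.0612, adjusted p = 1.35e-16). CRYAB, a small heat shock protein that serves the FBXO4 ligase, rose by 1.801 (SE 0.266, adjusted p = 1.26e-07 from edgeR) at low counts, 18, 14 and 16 against 60, 77 and 56, and by 1.02 on log2(FPKM + 1).

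Of 15 regulators of the INK4 locus, 6 were higher and 6 lower. The T-box repressors of the locus parted: TBX2 was at -1.14 (SE 0.0925, adjusted p = 2.53e-14 from edgeR), whereas TBX3 was at 0.95 (SE 0.0517, adjusted p = 8.04e-20 from edgeR). ETS1, an activator of CDKN2A transcription, had 8, 0 and 5 counts under sh-ctrl against 39, 40 and 52 under sh-KIF11, a log2 difference of 3.10 (SE 0.427). At such counts its size was loose, over the count settings from 2.52 without the second sh-ctrl library to 3.86 without the first. In FPKM, where the added constant compresses such low values, the ETS1 difference was 0.38 on log2(FPKM + 1) and 1.72 on log2(FPKM + 0.1). ETS1 passed the filter on low counts only through its sh-KIF11 libraries, so its call among the 6 higher genes adds no support. It could be fitted in 14 of 15 other settings, not in the one that required at least 10 counts in every library. Of the Polycomb genes outside the naming rule, EZH2, the methyltransferase, was at -0.20 (adjusted p = 0.00615 from edgeR) and at 0.04 with library totals alone. It lost its call there, with upper-quartile factors and in both FPKM settings. RNF2 at 0.52, CBX8 at -0.48, SUZ12 at 0.375 and RING1 at -0.35 passed with larger differences. BMI1 was at 0.33 (adjusted p = 0.07 from edgeR) and passed in 7 of 15 other settings. Among these were the fits without the third sh-ctrl and without the third sh-KIF11 library. Its 77 to 144 counts were few beside its FPKM, 21.9 to 26.6 under sh-ctrl against 36.6 to 38.1 under sh-KIF11. EED had 390 to 495 counts at 3.92 to 5.20 FPKM. The reason for this mismatch in BMI1 is not known.

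Of the FOXO factors, which activate CDKN1B, FOXO1 was higher by 0.37 (adjusted p = 2.88e-05), and FOXO3 and FOXO4 were at 0.14 (adjusted p = 0.0965) and -0.08 (adjusted p = 0.438) in edgeR. FOXO3 passed as higher in 6 of 15 other settings, up to 0.37 with library totals alone and including the fit without the third sh-ctrl library (0.17, adjusted p = 0.0463 from edgeR), and FOXO4 passed in 0 of them and changed sign in 3. Beside the INK4 locus, MTAP had 861, 760 and 764 counts under sh-ctrl against 928, 1002 and 916 under sh-KIF11, with a log2 difference of 0.06 (SE 0.0686, adjusted p = 0.469 from edgeR) against 2.92 for CDKN2A next to it. MTAP passed as higher with library totals alone (0.29, adjusted p = 0.000273 from edgeR) and in both FPKM settings with limma. DMRTA1, on the far side of CDKN2B, was at 1.20 (SE 0.267, adjusted p = 0.000126 from edgeR), from 14, 22 and 27 counts in sh-ctrl to 47, 60 and 60 in sh-KIF11, and at 0.65 on log2(FPKM + 1).

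**Figure D4:**
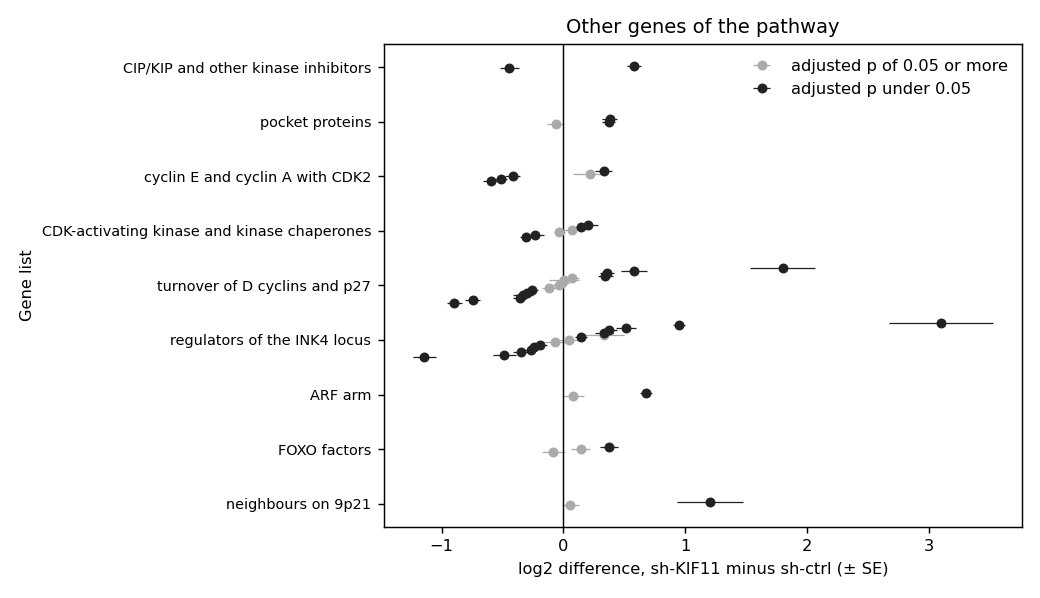
Log2 difference, sh-KIF11 minus sh-ctrl (x, bars give the SE), of the 53 tested genes in 9 pathway lists (y), black where edgeR's adjusted p was under 0.05 and grey otherwise. The calls fall on both sides of 0 in most lists, 19 higher and 18 lower, with ETS1 at 3.10 and CRYAB at 1.801 farthest to the right.

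The genes with the pattern nearest to a member over the 6 libraries were sought among 11378 others with a mean of at least 1 CPM, by the root mean square difference of log2 CPM relative to the sh-ctrl mean. Nearest to CDKN2A were DGKA (0.124), MAP1A (0.158) and EEF1A2 (0.187). Nearest to CCND1 were RANBP2 (0.0170), UGT1A1 (0.0220) and PLEKHM1 (0.0290), all of which share sequence with paralogs, a gene cluster or a pseudogene, so that their counts carry some uncertainty. Nearest to CCND2 were CYP24A1 (0.0880), which encodes the vitamin D 24-hydroxylase, SDC3 (0.109) and ABRACL (0.116). The log2 differences were 2.86 for DGKA, 0.75 for RANBP2 and 2.82 for CYP24A1, against 2.92 for CDKN2A, 0.75 for CCND1 and 2.81 for CCND2. This distance mostly ranks genes by the same group difference with which the members were chosen, so nearness is no evidence of a link.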

How the data were processed

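Poly(A) RNA from 3 sh-ctrl and 3 sh-KIF11 HepG2 samples was measured. The authors deposited raw counts per gene and a table of FPKM values. Per the labels, their processing notes name bcl2fastq 1.8.4, Trimmomatic, HISAT2 2.1.0, Cufflinks 2.2.1, HTSeq 0.9.1 and DESeq with GRCh38. The annotation release is not given in the sources used here. Columns named shRNA were taken as sh-KIF11, the only other shRNA in the labels.

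The count analysis used edgeR 4.0.16 under R 4.3.3 (TMM, filterByExpr, quasi-likelihood test, group as the only term), and p-values were adjusted by Benjamini-Hochberg over 12369 tested genes, and 7661 were left out. SE is the log2 difference over the root of F. Alternatives used DESeq2 1.42.0, and limma 3.58.1 on log2(FPKM + 1) and log2(FPKM + 0.1). Scripts were tested on simulated counts. Between libraries of a group, chi-square over its degrees of freedom was 2.67 to 7.85, so no pair looked like a repeat deposit of 1 library, which does not show separate cultures. Both pairs with the third sh-ctrl library had high values, 7.85 and 6.07, and the other pairs within a group had 2.67 to 3.48.

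The members and lists were chosen with earlier results of these data known. The naming rule took all 10 members, KIF11, every gene of a list of 3, in longer lists the 3 called genes with the largest difference and a mean of at least 1 CPM, and the 3 nearest genes in pattern to CDKN2A, CCND1 and CCND2. The result of 1 gene that met this rule is not reported here, and that gene is left out of the lists. Genes that overlap a member were named for that reason.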

Additional observations from a re-analysis of the deposited data

How the results depend on the processing

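Over 15 other settings, 2 differences of members changed sign, both with library totals alone: CDKN1B at 0.049 and CDK6 at 0.052. The count of called genes was 7975 to 8749 over all tested genes and 36 to 39 over the pathway lists with any 1 library left out. With the replicate number as a replicate block, 8607 genes and 37 pathway genes were called. Same-numbered libraries did not deviate together (correlations of 0.03, -0.02 and -0.003), so the numbers were not read as pairs. Of the 37 called pathway genes, 25 were called in every setting that could fit them and 12 lost the call in at least 1, and 13 of the 16 others gained one in at least 1. A gene that did not pass is not shown to have had equal levels. The low counts of CDKN2A and CDKN2B in sh-ctrl (14 to 39 per library) limit the size of their difference: leaving out 1 library gave 2.74 to 3.14 for CDKN2A and 2.63 to 3.08 for CDKN2B.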
